A study of Mus musculus with 8 samples.

Results

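Liver breaks down amino acids and turns their nitrogen into urea. The 37 genes described here encode the enzymes of the urea cycle and of amino acid breakdown. They were taken by gene name from a list of enzymes and are 37 of 24143 named genes in the deposited tables of polyadenylated RNA from mouse liver. All 37 were found, and all passed the filter on low values used below. A gene is represented by the transcript that holds most of its reads.

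The livers were from wild-type C57/BL6 mice, which carried no mutation and received no treatment. The animals were entrained for a week to 12 h of light and 12 h of darkness and then kept in constant darkness for a day before the first collection. Each circadian time (CT, hours of the internal day) has 1 library made from the pooled RNA of 3 animals. The 8 times run from CT23 to CT65, so that each clock phase was sampled on 2 successive internal days. CT29 and CT53 fall in the subjective day, CT35 and CT59 near its end, CT41 and CT65 in the subjective night, and CT23 and CT47 near the end of that night. The labels give no sex and no age, and a time has no second library, so the spread between animals cannot be read from these values.

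In the urea cycle, ammonia and bicarbonate are joined by Cps1 in mitochondria, and the carbamoyl phosphate that is formed passes through Otc, Ass1, Asl and Arg1 to yield urea and to restore ornithine. The other enzymes take single amino acids apart, often beginning with an aminotransferase or a dehydratase and ending in intermediates that feed glucose or ketone synthesis. Many of them are known to be more abundant around the portal vein and to respond to feeding, glucagon and glucocorticoids.

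The values are RPKM, reads per kilobase of transcript, scaled to the depth of the library, and the deposited tables give a lower and an upper RPKM for each transcript. The lower RPKM is used throughout unless stated otherwise. Values over the 8 libraries are listed from CT23 to CT65 in the order of collection.

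The CT35 library stood apart from the rest. Reads behind 1 RPKM numbered 22.9 M in CT35 and 11.7 to 13.9 M in the others (M, mega), and it had 87.8 junction reads per 100 gene reads against at most 71.4. Its introns were also low against its transcripts, with a median log2 ratio of -4.85 over 7177 genes against -4.47 to -4.23 in the others. Hepatocyte markers (7 of 8 listed were in the table, all with reads in every library) summed to 46500 RPKM in CT23 and to 74610 RPKM in CT35. The sum of periportal markers that are not members ran from 1172 to 1883 RPKM and that of pericentral markers from 3455 to 6230 RPKM. Single genes weigh heavily in these 3 sums: Alb averaged 35070 RPKM, Cyp2f2 (periportal) 962.9 RPKM and Cyp2e1 (pericentral) 3069 RPKM. Pck1, another periportal marker, was itself called in the 24-h fit with limma described below (5.4-fold, peak 9.23 h, adjusted p = 0.00369). Markers of bile duct, Kupffer, endothelial and stellate cells summed to between 14.7 and 70.6 RPKM per list and library, those of pancreas to at most 4.96 RPKM and those of fat to at most 0.261 RPKM, with Plin1 and Lep at 0 in all libraries. Kidney markers reached 8.06 RPKM in CT23 and 0.026 RPKM in CT53. Blood markers summed to between 63.6 RPKM in CT65 and 121.5 RPKM in CT47, and lymphocyte markers to between 1.67 and 3.42 RPKM. The part of these differences in the results below was not tested. In such bulk RNA, fewer cells of a type and less RNA per cell cannot be told apart.

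The first question was which of these enzymes followed a 24-h course. A cosine and a sine of 24 h were fitted to log2(RPKM + 0.5) of every gene with limma, and the fitted peak-to-trough difference, its standard error (SE) and the hour of the peak within the internal day are given below. None of the 37 members passed the threshold of 0.05 after Benjamini-Hochberg adjustment over 11483 genes, among which 349 genes (3.04%) were called. An unadjusted p under 0.05 was found for 11 of the 37 (29.7%) and for 1949 of all genes tested (17.0%). The 11 became 6 to 13 when 1 library was left out, with 6 without CT59, 7 without CT41 and 8 without CT35. The median fitted difference was 0.44 (log2) over the members and 0.36 over all genes tested. Fitted peak-to-trough differences of at least 2-fold were found for 5 members: Sds, Gpt2, Tat, Prodh and Amdhd1. Without CT35 such differences were left for 2 of them, Amdhd1 and Tat. The fitted peaks of the 11 are listed here by 2 spans of the internal day. The share of all genes that peak in these spans was not determined, so this only describes the 11. Amdhd1, Gldc, Hal, Kynu and Amt peaked between 20 h and 4 h, and Tat, Gpt2, Sds, Prodh, Tdo2 and Asl between 8 h and 16 h. Without CT35, the peaks of Asl (16.68 h), Tat (16.15 h) and Tdo2 (7.38 h) fell just outside that span. As a check of the time labels, 12 of 12 clock genes were called, with Dbp highest at 9.15 h and Arntl, which encodes the activator BMAL1, at 21.63 h.

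**Figure D1:**
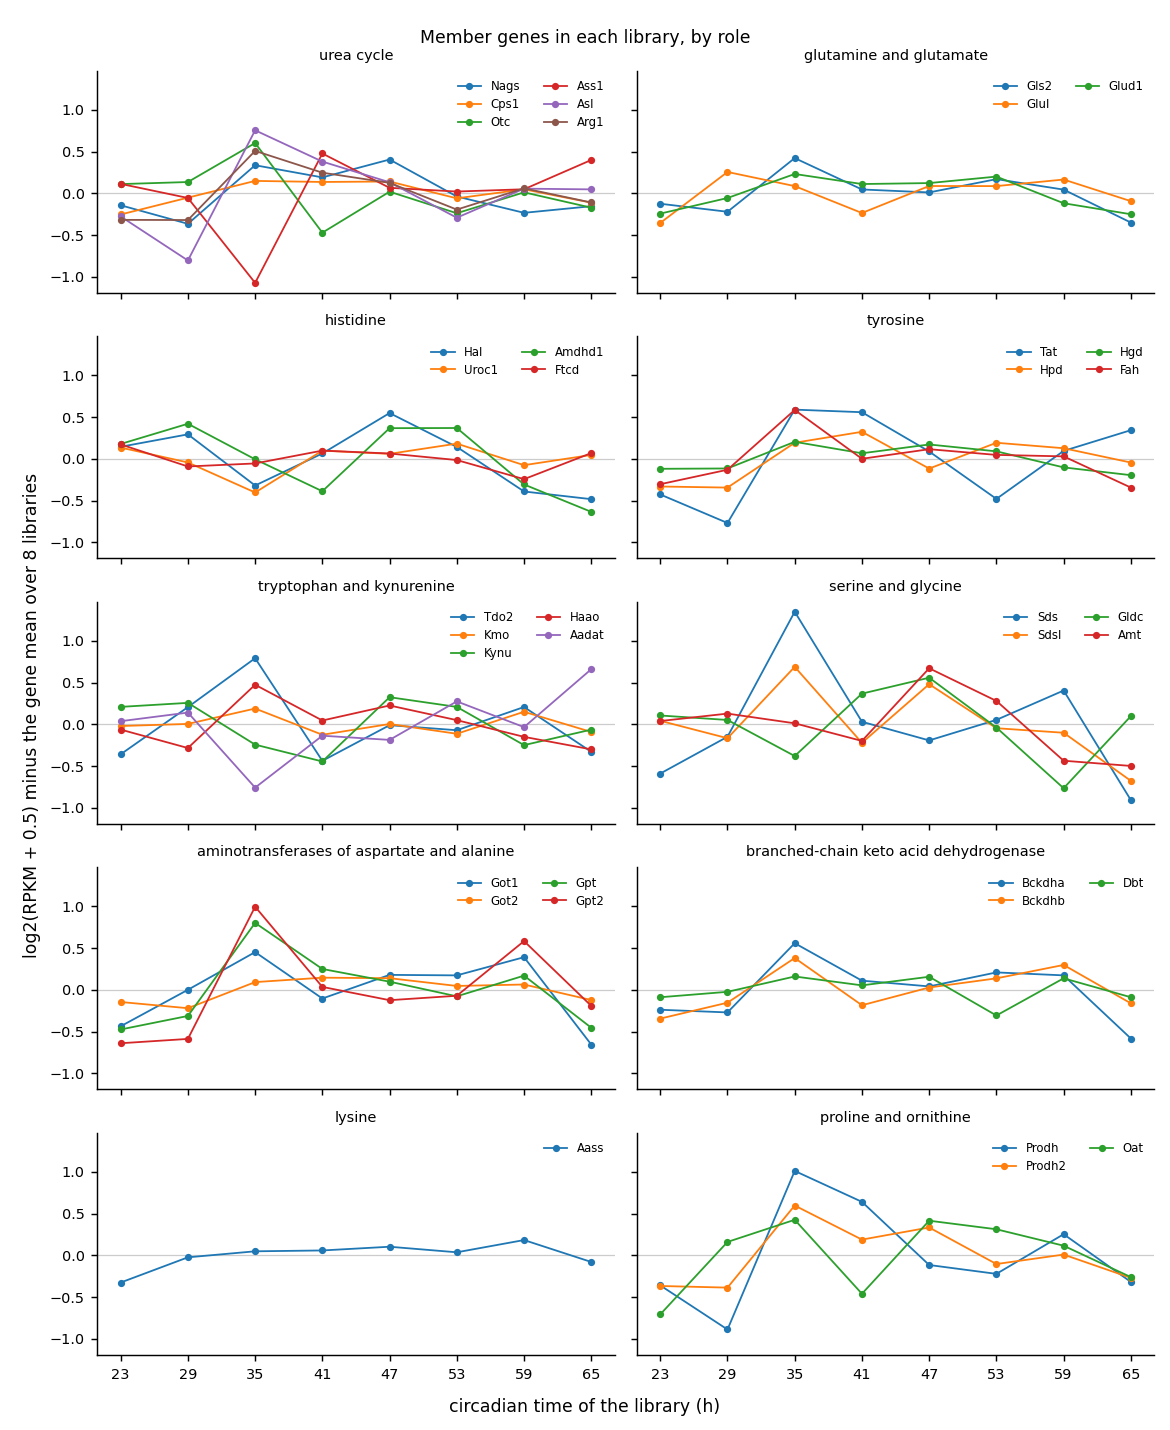
Each line is 1 member gene, grouped by role; the horizontal axis is the circadian time of the library in hours and the vertical axis is log2(RPKM + 0.5) minus the mean of that gene over the 8 libraries, with 1 pooled library per point. Most lines of the urea cycle, glutamine, tyrosine, tryptophan, aminotransferase, branched-chain and proline panels are highest in CT35. Ass1 is lowest there (385 RPKM), and Hal and Amdhd1 are highest in other libraries.

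**Figure D2:**
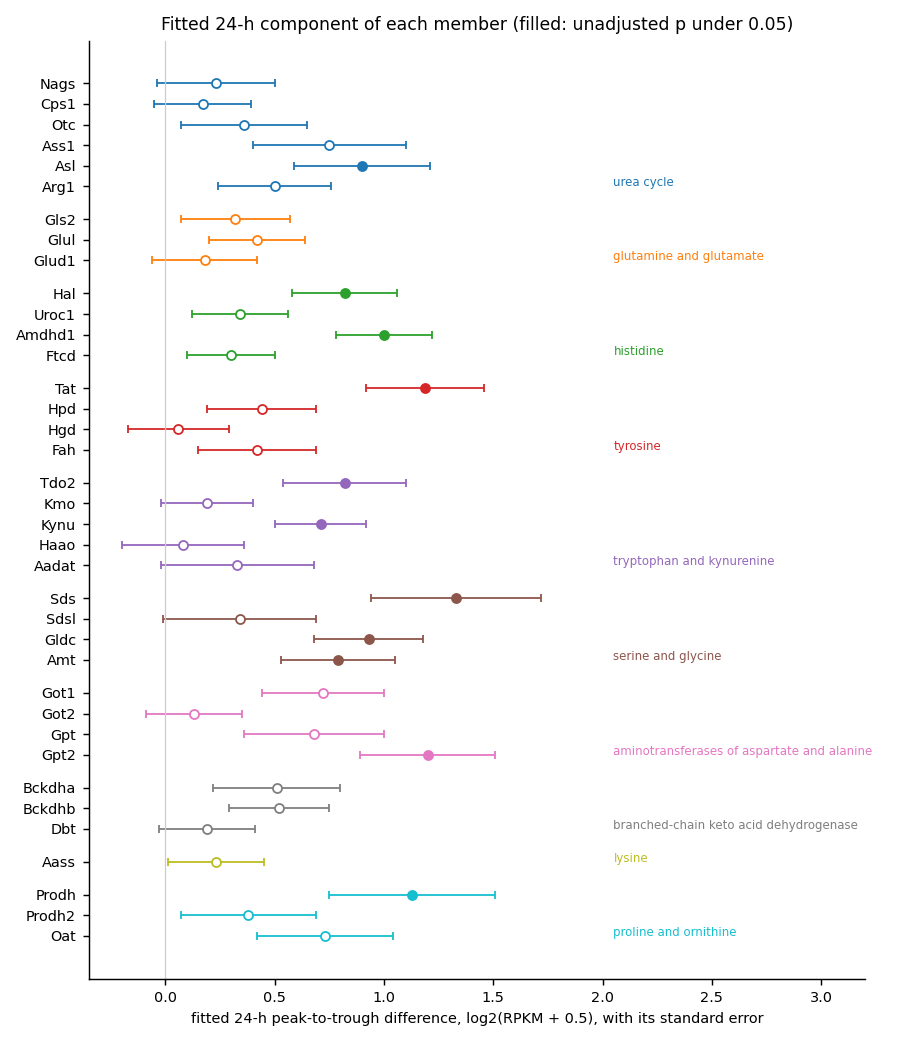
Points give the fitted 24-h peak-to-trough difference of each of the 37 members on the log2(RPKM + 0.5) scale, bars its standard error, colours the role, and filled points an unadjusted p under 0.05. The filled points number 11 and the differences run from 0.06 for Hgd to 1.33 for Sds; a peak-to-trough difference cannot be negative, so every value lies above 0.

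The promoters of the 4 members with the smallest adjusted p are shown because these 4 stood closest to the threshold and peaked at different times of the internal day. The 250 bases before the start are from RefSeq on GRCm38.p6, written 5′ to 3′ on the strand of the gene, with matches to the motifs named below in capitals. Those coordinates are of another build than the mm9 positions of the deposited tables.
Amdhd1 promoter (chr10:93540034-93540283, minus strand): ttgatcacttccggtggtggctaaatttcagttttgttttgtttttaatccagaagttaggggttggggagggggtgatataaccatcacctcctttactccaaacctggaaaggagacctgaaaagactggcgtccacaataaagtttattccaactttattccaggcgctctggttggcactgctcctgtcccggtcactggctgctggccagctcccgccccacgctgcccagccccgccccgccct
Tat promoter (chr8:109990186-109990435, plus strand): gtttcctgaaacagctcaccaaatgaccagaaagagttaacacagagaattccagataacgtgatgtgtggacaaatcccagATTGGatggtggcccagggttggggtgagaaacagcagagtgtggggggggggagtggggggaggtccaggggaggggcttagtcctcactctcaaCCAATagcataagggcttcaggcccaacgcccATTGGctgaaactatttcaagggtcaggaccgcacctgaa
Gpt2 promoter (chr8:85492326-85492575, plus strand): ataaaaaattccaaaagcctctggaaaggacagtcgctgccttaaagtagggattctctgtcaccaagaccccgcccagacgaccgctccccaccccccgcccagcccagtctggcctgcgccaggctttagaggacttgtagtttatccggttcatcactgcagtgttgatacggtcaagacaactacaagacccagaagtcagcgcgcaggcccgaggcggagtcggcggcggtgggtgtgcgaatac
Gldc promoter (chr19:30175442-30175691, minus strand): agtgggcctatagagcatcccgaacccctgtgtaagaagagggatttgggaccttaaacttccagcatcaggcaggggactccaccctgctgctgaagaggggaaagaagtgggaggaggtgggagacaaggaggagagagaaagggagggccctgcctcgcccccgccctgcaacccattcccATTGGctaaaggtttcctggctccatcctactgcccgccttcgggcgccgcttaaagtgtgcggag

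The motifs searched on both strands were the E-box (CACGTG), the D-box (TTANGTAA), the RORE (TNGGTCA), the CRE core (TGACG), the CCAAT box (CCAAT), the GRE core (TGTTCT), the TATA box (TATAAA) and the C/EBP motif (TTGCNNAA). A promoter was found for 28 of the 37 members. The Tat window held the CCAAT box 3 times and the Gldc window once, while no motif was found in the Amdhd1 and Gpt2 windows. The CCAAT box was in 13 of the 28 members and in 33.8% of 32851 promoter windows of this length. The E-box was in 1 of 28 (Ass1) against 6.02% of all windows, the D-box in none against 2.06%, and the RORE in 5 of 28 (Aass, Glul, Hal, Hgd and Kmo) against 9.19%. The TATA box was in 5 of 28 against 12.4%, the C/EBP motif in 4 of 28 against 9.56%, the CRE core in 2 of 28 against 17.8%, and the GRE core in 2 of 28 against 16.1%. A match is only a match of letters.

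Among the urea cycle enzymes, mean levels ran from 12.3 to 843 RPKM and none of 6 was called. Asl, argininosuccinate lyase, had the smallest p of the 6. It measured 134, 92.9, 275, 212, 178, 133, 169 and 168 RPKM. Asl was highest in CT35 and CT41 and lowest in CT29 on the first day, while on the second day CT47 to CT65 spanned 133 to 178 RPKM. The fitted difference was 1.86-fold with a peak at 14.86 h (SE 1.33 h) and an adjusted p of 0.273 from limma, or 0.193 without CT35.

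Ass1, argininosuccinate synthase, was the most abundant member of the cycle at 843 RPKM on average. It measured 876, 779, 385, 1127, 848, 822, 838 and 1068 RPKM. CT35 was the single low library, and both libraries of the subjective night, CT41 and CT65, were the highest. The lower and upper values parted for this gene: the upper RPKM was 1607, 1591, 1534, 2208, 1669, 1588, 1588 and 1830.0, on average 2.02 times the lower one. The gap was widest in CT35, at 385 and 1534 RPKM. With the upper value CT35 was still the lowest but close to CT53 and CT59, and CT41 and CT65 were still the highest. Junction reads of Ass1 scaled to 1 M junction reads summed to 908 in CT35 against 3032 to 4081. The low CT35 value did not hold along the whole transcript. Unscaled, the junction of intron 7 had 724 reads in CT35 and 1944 to 2745 in the others. That of intron 11 had 659 against 40 to 259. All junction reads numbered 14.75 M in CT35 and 5.27 to 6.23 M in the others. The fitted lower value peaked at 20.53 h (adjusted p = 0.442, limma), at 17.77 h with the upper value (adjusted p = 0.662) and at 16.87 h without CT35 (adjusted p = 0.414).

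Cps1, the mitochondrial synthetase that feeds the cycle, measured 389, 447, 514, 509, 511, 444, 479 and 429 RPKM. Its fitted difference was 1.12-fold (0.17 on the log2 scale, SE 0.22), with an adjusted p of 0.891 in limma. Arg1, which releases urea, ranged from 204 to 362 RPKM and Otc, ornithine transcarbamylase, from 44.7 to 94.5 RPKM, both highest in CT35. Nags, which makes the activator of Cps1, was the weakest of the 6 with 9.25 to 16.1 RPKM, and 16.3% of its transcript overlaps a gene on the opposite strand. The fitted differences of these 3 were 0.50, 0.36 and 0.23 on the log2 scale, with SEs of 0.26, 0.29 and 0.27. Their adjusted p were 0.512, 0.742 and 0.862 in limma.

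None of the 3 enzymes of glutamine and glutamate was called or had an unadjusted p under 0.05. Glul, glutamine synthetase of the pericentral hepatocytes, measured 189, 289, 257, 205, 257, 257, 271 and 227 RPKM. It was lowest in CT23 and CT41, and its fitted difference was 0.42 (log2, SE 0.22) with a peak at 7.51 h (adjusted p = 0.523, limma). Gls2, the liver glutaminase, ranged from 73.7 to 126 RPKM, and Glud1, glutamate dehydrogenase, from 117 to 163 RPKM with a fitted difference of 1.14-fold.

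The 4 enzymes of histidine breakdown act one after the other in the order Hal, Uroc1, Amdhd1 and Ftcd, and none of them was called. Amdhd1, imidazolonepropionase, is the member with the smallest adjusted p. It measured 39.8, 47.1, 34.95, 26.7, 45.4, 45.5, 28.3 and 22.4 RPKM. The libraries of the late night and the day, CT23, CT29, CT47 and CT53, were all above those of CT35, CT41, CT59 and CT65. The fitted difference was 2.00-fold with a peak at 3.31 h (SE 0.83 h) and an adjusted p of 0.057 from limma, which was 0.0187 without CT35.

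Hal, histidine ammonia-lyase, which opens the pathway, measured 69.9, 77.6, 50.6, 66.1, 92.7, 69.8, 48.1 and 45.1 RPKM. It was lowest in CT35, CT59 and CT65 and highest in CT47, and its fitted peak at 1.09 h (SE 1.12 h) had a 1.77-fold difference (adjusted p = 0.173, and 0.179 without CT35, limma). Hal and Amdhd1 are neighbours on chromosome 10 in mm9, at 92951513 to 92982049 on the plus strand and 92986083 to 93002778 on the minus strand, so that their ends face each other over 4.03 kb. The enzyme between them in the pathway, Uroc1 (urocanase), lies on chromosome 6 and measured 162, 143, 111, 157, 153, 167, 139.5 and 152 RPKM, with CT35 lowest. Ftcd, the last enzyme, which passes the formimino group to folate, ranged from 88.3 to 118 RPKM. The fitted differences of Uroc1 and Ftcd were 1.26-fold and 1.23-fold, with adjusted p of 0.651 and 0.663 in limma; that of Uroc1 was 0.34 on the log2 scale and 0.15 without CT35.

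In tyrosine breakdown, Tat had the largest fitted difference. Tat, tyrosine aminotransferase, catalyses the first step and is a classic glucocorticoid-responsive gene of liver. It measured 382, 301, 772, 755, 545, 368, 548 and 651 RPKM. CT29 and CT53, and CT23, were the lowest, and CT35, CT41 and CT65 the highest. The fitted difference was 2.28-fold with a peak at 15.30 h (SE 0.85 h) and an adjusted p of 0.0637 from limma. It was 0.0295 without CT35.

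Hpd, the dioxygenase of the next step, was the most abundant member at 1259 RPKM on average. It measured 988, 979, 1420.0, 1555, 1146, 1420.0, 1357 and 1205 RPKM, low in both first libraries and between 1146 and 1555 RPKM in the other 6. Its fitted difference was 1.36-fold (adjusted p = 0.557, limma). Hgd, homogentisate dioxygenase, ranged from 169 to 223 RPKM, with the smallest fitted difference of the 37 (0.06 on the log2 scale, SE 0.23). Fah, the last enzyme of the pathway, ranged from 176 to 335 RPKM, highest in CT35, and its fitted difference was 0.42 on the log2 scale and 0.16 without CT35.

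In tryptophan breakdown, Kynu and Tdo2 had unadjusted p under 0.05, with peaks at different times. Kynu, kynureninase, measured 37.1, 38.3, 27.0, 23.4, 40.2, 37.0, 26.8 and 30.6 RPKM. All 4 libraries of late night and day (CT23, CT29, CT47 and CT53) were above the other 4, as for Amdhd1, and the fitted difference was 1.63-fold with a peak at 1.90 h (SE 1.13 h; adjusted p = 0.178, and 0.175 without CT35, limma). Tdo2, tryptophan dioxygenase, which controls entry into the pathway, measured 77.1, 114, 172, 72.9, 98.2, 94.2, 114 and 78.7 RPKM. Tdo2 was lowest in CT23, CT41 and CT65 and highest in CT35, with a fitted peak at 8.77 h (1.76-fold, adjusted p = 0.253, limma) whose adjusted p was 0.368 without CT35.

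Haao, which makes the precursor of quinolinate, had the highest level of the 5 and measured 217, 186, 315, 234, 265, 234, 204 and 184 RPKM, a fitted difference of 0.08 on the log2 scale, and 0.27 without CT35. Kmo, kynurenine monooxygenase, ranged only from 36.0 to 44.8 RPKM. Aadat, an aminotransferase of kynurenine and aminoadipate, ranged from 52.0 RPKM in CT35 to 139.8 RPKM in CT65. This contrast was not seen at all of its introns. Junction reads of Aadat numbered 1151 in CT35 and 2765 in CT65 at intron 2, and 154 and 42 at intron 8. All junction reads numbered 14.75 M and 5.74 M in these libraries. Libraries of the same phase differed more for Aadat than its fitted curve, with 80.3 RPKM in CT41 and 139.8 RPKM in CT65.

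Among the enzymes of serine and glycine, 0 of 4 were called. An unadjusted p under 0.05 in limma was found for 3 of the 4, and for 17.0% of all genes tested. Gldc and Amt are 2 proteins of the mitochondrial glycine cleavage system. Gldc measured 30.1, 29.01, 21.4, 36.2, 41.4, 27.2, 16.3 and 29.97 RPKM. It was lowest in both libraries of the end of the day, CT35 and CT59, and highest in CT47, with a fitted peak at 22.06 h (SE 1.03 h), a 1.91-fold difference and an adjusted p of 0.134 in limma, or 0.128 without CT35. Amt measured 15.5, 16.6, 15.2, 13.1, 24.4, 18.5, 11.04 and 10.6 RPKM. Its range on the second day was wider than on the first, and the fitted peak at 1.95 h had a 1.73-fold difference (adjusted p = 0.227, and 0.0819 without CT35, limma).

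Sds, serine dehydratase, which sends serine carbon towards glucose, had the largest fitted difference of the 37 over all 8 libraries, but not without CT35. It measured 50.2, 68.3, 194, 77.4, 66.3, 78.7, 101 and 40.2 RPKM. The peak phase was the same on both days, but CT35 was nearly 2-fold above CT59, with a log2 difference of 0.94. The fitted difference was 2.51-fold with a peak at 9.86 h (SE 1.14 h) and an adjusted p of 0.181 in limma, and 0.80 on the log2 scale with an adjusted p of 0.355 without CT35, where Tat had the largest. Of the Sds transcript, 41.5% overlaps genes annotated on the opposite strand, whose reads cannot be told apart from those of Sds.

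The aminotransferases of alanine and aspartate each exist in a pair of genes. Gpt2, the mitochondrial alanine aminotransferase, measured 39.1, 40.5, 122, 62.6, 56.0, 58.2, 91.8 and 53.4 RPKM. CT35 and CT59 were the highest libraries, without overlap with the others, and the fitted difference was 2.29-fold at 11.81 h (SE 0.98 h) with an adjusted p of 0.109 in limma, and 0.241 without CT35. Gpt, the cytosolic form, measured 39.9, 44.7, 97.4, 66.3, 59.6, 52.7, 62.7 and 40.5 RPKM. It was also highest in CT35, but CT59 lay within the range of the other libraries, and its fitted difference was 0.68 on the log2 scale (adjusted p = 0.459, limma) and 0.32 without CT35 (adjusted p = 0.834).

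Got1, the cytosolic aspartate aminotransferase, measured 35.5, 48.2, 66.1, 44.8, 54.7, 54.4, 63.4 and 30.4 RPKM. Got2, the mitochondrial form, measured 115, 109.5, 136, 141, 141, 132, 133 and 117 RPKM. Got1 was highest in CT35 and CT59 and its fitted difference was 1.65-fold (peak 8.31 h, adjusted p = 0.347, and 0.430 without CT35, limma), while that of Got2 was 1.09-fold (adjusted p = 0.933). For Got2 the upper value was on average 1.30 times the lower one. Together with Ass1 it is 1 of 2 members whose upper value exceeded the lower by more than 1.1 times.

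Members of the branched-chain keto acid dehydrogenase, the complex that commits leucine, isoleucine and valine to breakdown, were not called. Bckdha and Bckdhb encode the subunits of its decarboxylase. Bckdha measured 46.8, 45.8, 81.7, 59.8, 57.0, 64.0, 62.5 and 36.8 RPKM. Bckdhb measured 18.02, 20.6, 30.1, 20.2, 23.5, 25.4, 28.4 and 20.5 RPKM. Both were highest in CT35, with fitted differences of 1.42-fold and 1.44-fold at 9.41 h and 9.78 h, and their adjusted p were 0.581 and 0.404 in limma. Without CT35 these differences were 0.29 and 0.42 on the log2 scale, against 0.51 and 0.52 with it. Dbt, the acyltransferase core, ranged from 12.0 to 16.8 RPKM. Aass, the 2-step enzyme that begins lysine breakdown, measured 35.5, 43.8, 46.1, 46.4, 47.9, 45.7, 50.7 and 42.2 RPKM, and its fitted difference was 1.17-fold (adjusted p = 0.809).

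Of the enzymes of proline and ornithine, Prodh had an unadjusted p under 0.05. Prodh, proline dehydrogenase, measured 33.3, 22.97, 87.0, 67.2, 39.6, 36.7, 51.3 and 34.3 RPKM. Its range over the first day, from 22.97 to 87.0 RPKM, was wider than over the second, from 34.3 to 51.3 RPKM. The fitted difference was 2.18-fold at 13.63 h (adjusted p = 0.250, limma) and 0.82 on the log2 scale without CT35 (adjusted p = 0.333). Prodh2, which acts on hydroxyproline, measured 29.9, 29.5, 58.8, 44.2, 48.9, 36.0, 39.0 and 32.1 RPKM, a fitted difference of 0.38 on the log2 scale, and 0.21 without CT35. Oat, ornithine aminotransferase, measured 59.9, 109.6, 132, 71.1, 131, 122, 106 and 81.7 RPKM. CT23 and CT47, of the same phase, differed for Oat by -1.12 on the log2 scale, and its adjusted p was 0.403.

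Whether the 2 genes of a pair differed in their course was tested on the log2 ratio of their RPKM. The 24-h fit of each ratio was compared with all 40320 orders of the 8 times in an exact permutation test, with p-values adjusted over the 4 pairs; the smallest p it can give is 0.00317. Over all 8 libraries, a 24-h course was called for the ratio of Sds to its paralog Sdsl. Sdsl, at 1.77, 1.46, 3.05, 1.39, 2.58, 1.63, 1.56 and 0.879 RPKM, was far weaker than Sds. It rested on few reads, from 18 in CT65 to 103 in CT35, and 41.5% of the Sds transcript overlaps opposite-strand genes. The log2 ratio ran from 4.44 in CT47 to 5.77 in CT35. Its fitted difference was 1.24 with a peak at 10.85 h (exact permutation p = 0.00952, adjusted p = 0.0381). Without CT35 the fitted difference was 1.20 with an adjusted p of 0.102. The 2 genes lie back to back on chromosome 5, Sdsl on the minus and Sds on the plus strand, with 3.72 kb between their starts.

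For the other 3 pairs the ratio was not called. The ratio of Got1 to Got2 ran from -1.93 in CT65 to -1.04 in CT35 (fitted difference 0.73, exact permutation p = 0.0603, adjusted p = 0.121). The ratio of Gpt2 to Gpt ran from -0.14 to 0.55 (fitted difference 0.52, exact permutation p = 0.133, adjusted p = 0.133) and that of Prodh to Prodh2 from -0.36 to 0.60 (fitted difference 0.75, exact permutation p = 0.127, adjusted p = 0.133).

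**Figure D3:**
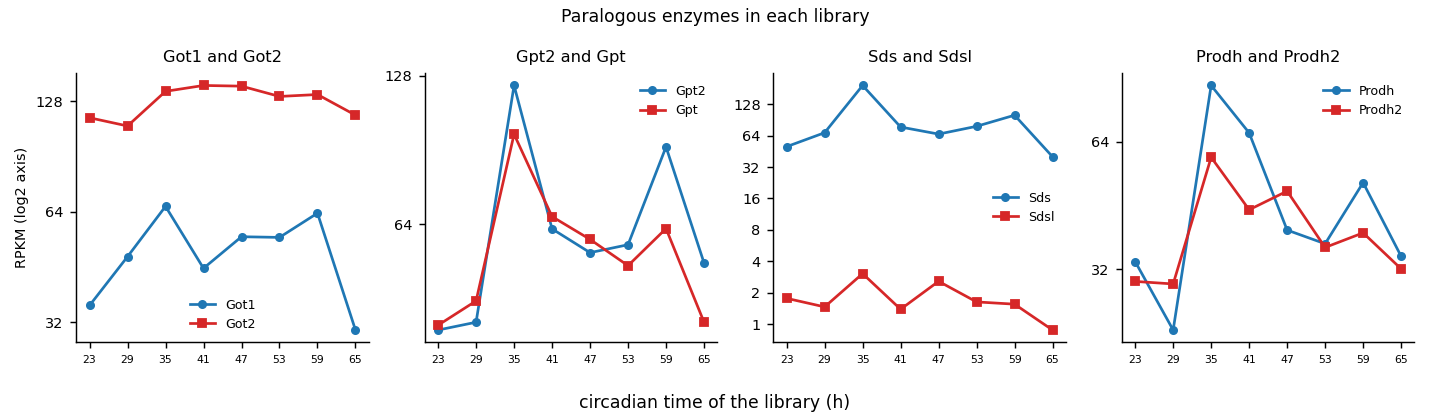
Each panel shows both genes of a pair, with the RPKM of 1 pooled library per point on a log2 axis against circadian time in hours; the vertical axes differ between panels. Sds stays above Sdsl in all 8 libraries, by 4.44 to 5.77 on the log2 scale, and Got2 above Got1.

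Other analyses of the same 24-h course called some members. After leaving out CT35, limma called 468 of 11483 genes (4.08%) and Amdhd1 and Tat among the 37. With weights for each library, which gave CT35 the lowest weight (0.363), it called 7.79% of genes and Amdhd1, Tat and Gpt2. After TMM scaling it called 2.81% and Tat (adjusted p = 0.0299). The quasi-likelihood test of edgeR on the recovered reads called 3.53% of genes and 2 members, Amdhd1 (adjusted p = 0.0418) and Tat (adjusted p = 0.0187). DESeq2 called 6.69% of genes and 8 members: Amdhd1, Asl, Gldc, Gpt2, Hal, Prodh, Sds and Tat. In junction reads, edgeR called 2.22% of 8689 genes, with Gpt2 (adjusted p = 0.0361) and Tat (adjusted p = 0.0494) among the members. With the transcript of highest summed RPKM, which is another transcript for 26 of the 37 and often a short fragment, 1.79% of 10855 genes and no member were called. The remaining 29 members were called in none of these or the other alternatives, which numbered 22 per gene, and 21 for Sdsl.

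For 12-h courses, which set CT23, CT35, CT47 and CT59 against the other times, 1 gene (0.00871%) and no member was called by limma, while 1040 genes and 1 member had an unadjusted p under 0.05. That member was Sdsl, the paralog of Sds, which was 0.56 higher on the log2 scale at CT23, CT35, CT47 and CT59. Between the second and the first day, with the phase as a block, no gene (0%) was called by limma. Without adjustment 233 genes and no member had p under 0.05 in limma and 216 genes in edgeR, and the smallest unadjusted p of a member was 0.106, for Aadat.

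Libraries of the same phase on the 2 days differed by amounts that most members shared. In CT23 the members were lower than in CT47, with a median log2 difference of -0.37 against -0.10 for all genes tested. In CT35 they were higher than in CT59, with a median of 0.35 against 0.03. Hepatocyte markers also summed higher in CT35 (74610 RPKM) than in CT59 (49250 RPKM), and their part in this difference was not tested. The median of the members was -0.17 for CT29 against CT53 and 0.27 for CT41 against CT65, where all genes tested had -0.07 and 0.08. The largest such differences were -1.12 for Oat between CT23 and CT47, -1.12 for Ass1 and 0.94 for Sds between CT35 and CT59, and 0.96 for Prodh between CT41 and CT65. With 1 library per time, pool, lane and day cannot be told apart in these differences. Summed, the members together had 5216 and 5252 RPKM in CT23 and CT29, and 5967 to 6973 RPKM in the other 6 libraries. Single genes weigh heavily in this sum too, with Hpd at 1259 RPKM and Ass1 at 843 RPKM on average.

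**Figure D4:**
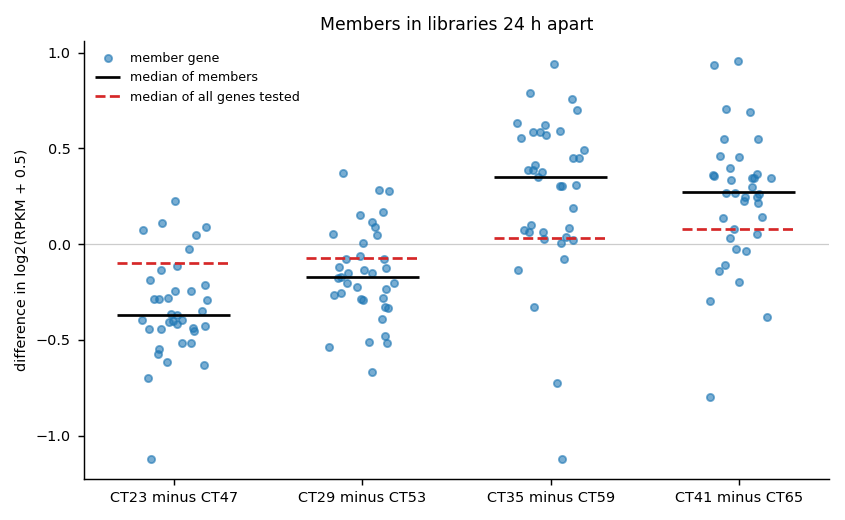
Points are the 37 members, placed by the difference in log2(RPKM + 0.5) between the libraries 24 h apart named on the horizontal axis; solid lines are medians of the members and dashed lines medians of all genes tested. The members lie mostly below 0 for CT23 minus CT47 (median -0.37) and mostly above 0 for CT35 minus CT59 (median 0.35).

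Reads in introns come largely from RNA that is not yet spliced, and the same 24-h fit was made on log2(RPKM + 0.05) of the introns clear of annotated exons. Of 7387 genes tested, limma called 209 (2.83%) and no member. An unadjusted p under 0.05 was found for 9 of 37 members and 778 of all genes (10.5%). Of these 9 members, 8 were among the 11 with an unadjusted p under 0.05 in the transcript. The matching overlap over all genes was not determined, and introns and transcripts were read in the same libraries. The test of edgeR on intron reads called 4.64% of genes and 6 members: Ass1, Gpt2, Hal, Prodh, Sds and Tat. Without CT35, limma called 1.85% of genes and 1 member, Ass1.

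For Tat, Gpt2, Sds and Prodh the intron and transcript peaks lay close together. Tat introns measured 23.6, 19.1, 40.9, 42.2, 34.8, 18.2, 45.6 and 42.7 RPKM. As in the transcript, CT23, CT29 and CT53 were the lowest. The peak was at 15.23 h in the introns and at 15.30 h in the transcript. Gpt2 introns measured 1.19, 1.56, 2.78, 2.27, 1.51, 2.12, 3.80 and 2.07 RPKM, with CT59 and CT35 highest and peaks at 11.75 h and 11.81 h. The transcript minus intron difference in peak was -0.45 h for Sds and 0.30 h for Prodh. These differences have SEs of 1.5 to 1.74 h, computed as if both fits were independent although they share libraries. For Sds, 1 of 7 introns (1383 bases) was clear of annotated exons, and 41.5% of the transcript overlaps opposite-strand genes.

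For the members that peaked at the end of the night or in the morning, the intron peak came earlier than the transcript peak. Amdhd1 introns measured 8.37, 6.18, 1.99, 7.08, 6.87, 4.88, 3.62 and 7.42 RPKM. They were low in CT35 and CT59, whereas the transcript was lowest in CT41 and CT65, one sampled time later. The peaks were at 22.00 h and 3.31 h, a difference of 5.31 h (SE 1.33 h), with an adjusted p of 0.0849 for the introns in limma. The fitted difference of the introns was 1.53 on the log2 scale, and 1.03 without CT35 (adjusted p = 0.257). Hal introns measured 7.88, 3.35, 1.52, 6.40, 6.83, 4.25, 4.83 and 7.55 RPKM, low in CT29 and CT35 and on the second day in CT53 and CT59. The difference between peaks was 4.20 h (SE 1.5 h) for Hal, where the introns had an adjusted p of 0.0597 in limma, or 0.142 without CT35. It was 4.03 h (SE 1.83 h) for Amt and 3.07 h (SE 1.58 h) for Gldc, whose introns had adjusted p of 0.333 and 0.19 in limma. Without CT35, whose introns were low, the differences were 5.28 h for Amdhd1, 5.49 h for Hal, 3.29 h for Amt and 4.50 h for Gldc, and 0.75 h for Tat, 0.43 h for Gpt2, -1.25 h for Sds and 1.51 h for Prodh. These 8 genes were taken because both fits had unadjusted p under 0.05, and the difference between the 2 sets of genes was not tested.

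**Figure D5:**
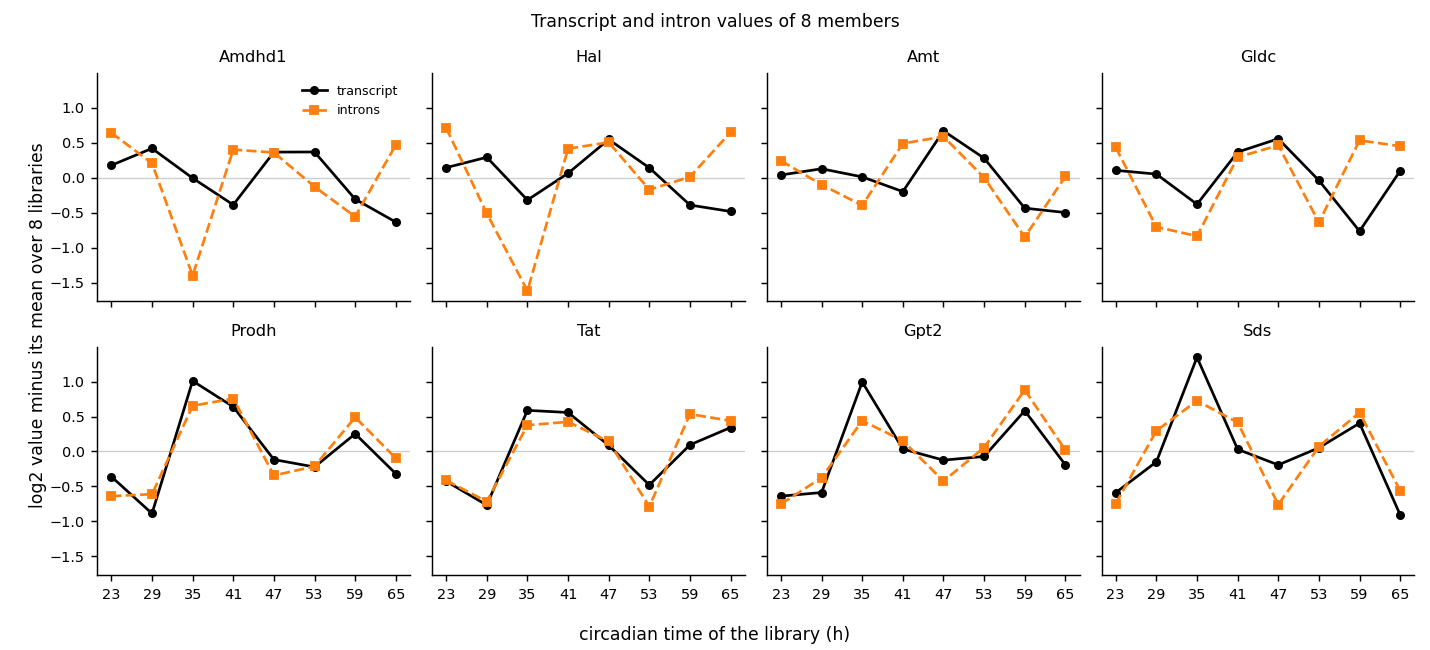
Circles and solid lines are transcripts, log2(RPKM + 0.5), and squares and dashed lines are introns, log2(RPKM + 0.05), each minus its mean over the 8 libraries, against circadian time in hours, with 1 pooled library per point. In the upper row (Amdhd1, Hal, Amt and Gldc) the transcript peak is 3.07 to 5.31 h after the intron peak, and in the lower row (Prodh, Tat, Gpt2 and Sds) the 2 lie within -0.45 to 0.30 h.

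Ass1 was the 1 member with an unadjusted p under 0.05 in the introns and not in the transcript. Its introns measured 4.96, 5.60, 5.01, 11.3, 5.17, 5.68, 11.2 and 10.2 RPKM. CT41, CT59 and CT65 were about 2-fold above the other 5, with no value between 5.68 and 10.2 RPKM. The fitted intron peak was at 14.92 h (2.11-fold, adjusted p = 0.465 in limma), and without CT35 at 13.58 h with an adjusted p of 0.0315. The edgeR test gave an adjusted p of 0.0284 for the introns of Ass1.

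Among related genes that are not members, 3 of 88 tested in 5 lists were called (3.41%, against 3.04% of all genes), and 18 had an unadjusted p under 0.05 in limma (20.5%, against 17.0%). Of 13 carriers and side enzymes of the urea cycle, 11 were tested and 0 called, with 3 at an unadjusted p under 0.05 in limma; Aqp9, a channel for glycerol and urea and the most abundant of them, averaged 58.8 RPKM with a fitted peak at 7.96 h (1.74-fold, adjusted p = 0.156). Of 21 tested further enzymes of branched-chain amino acids 0 were called (2 with unadjusted p under 0.05 in limma), Acat1, a mitochondrial thiolase, being the most abundant at 76.9 RPKM. Of 26 tested further enzymes of serine, glycine, threonine, lysine, proline and cysteine 0 were called (5 with unadjusted p under 0.05 in limma), with Cdo1, cysteine dioxygenase, the most abundant at 348 RPKM. Of 12 further enzymes of aromatic amino acids 1 was called: Ddc, aromatic amino acid decarboxylase, with a 3.93-fold difference at 21.66 h (adjusted p = 0.00211 in limma). Gstz1, the most abundant of these, at 322 RPKM, had a fitted difference of 1.15-fold.

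Of 18 regulators known for amino acid breakdown, 2 were called. Foxo3, a transcription factor restrained by insulin signalling, differed 2.27-fold with a peak at 9.64 h (adjusted p = 0.0197, limma). Ppara, the fasting-linked nuclear receptor that controls fatty acid oxidation, differed 2.19-fold with a peak at 9.66 h (adjusted p = 0.0319, limma). Hnf4a, the most abundant regulator at 145 RPKM, had a fitted difference of 1.14-fold.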

How the data were processed

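The members and gene lists were chosen with earlier results of these data known. The authors aligned reads to mm9, per the submitters' processing notes. The deposited transcript tables hold a lower and an upper RPKM per transcript and intron (columns min and max, per the file headers), with no statement in the headers of how they differ. The deposited junction tables hold counts of high-quality RUM junctions, per the file headers.

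Lower values were whole multiples of 1 read (100% within 0.1 read), which gave reads per transcript. RefSeq and Vega identifiers named 24143 genes, and each was represented by its transcript with the most reads. Genes with at least 20 reads in at least 2 libraries were fitted with limma 3.58.1 (R 4.3.3; trend, robust; 5 residual degrees of freedom for 24 h, 4 for 12 h, 3 for the day), and Benjamini-Hochberg adjustment was over all genes. Alternatives used edgeR 4.0.16 and DESeq2 1.42.0. The 24-h fit with limma was tested on simulated counts, with results not given here. With 1 pooled library per time, p-values reflect only scatter around the fitted curve, which may be technical. Named were all members, with values in every library for those with the smallest adjusted p or the highest mean of each role and for the paralogs.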

Additional observations from a re-analysis of the deposited data

How the results depend on the processing

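Of all genes, 349 were called for the 24-h course, and the count was 768 with DESeq2, 894 with library weights, 89 with no filter on low values, 193 from junction reads, 194 with the transcript of highest summed RPKM, and 177 to 468 when 1 library was left out. The count of members called, 0 in the analysis reported (3.04% of all genes), was 8 with DESeq2 (6.69%) and 3 with library weights (7.79%). It was 2 of 36 tested with at least 100 reads in every library (5.25% of 5902 genes). It was 2 with edgeR (3.53%), 2 from junction reads (2.22%), 1 with TMM scaling (2.81%) and 1 with equal medians (2.88%). When 1 library was left out it was 0 to 2, with 2 without CT35 (4.08%) and 1 without CT47 (2.39%). For introns the 0 members (2.83% of all genes called) became 6 with edgeR (4.64%) and 5 with library weights (6.21%). They became 4 of 31 tested with at least 100 reads in every library (5.48% of 1331 genes). With a day term 2 were called (3.86%), with all introns 1 (2.29%) and with equal medians 1 (2.67%). When 1 library was left out 0 to 2 were called: 1 without CT35 (1.85%), 1 without CT41 (3.4%), 2 without CT53 (3.79%) and 2 without CT59 (2.44%). The causes were not tested. For 12-h courses and for the second day against the first, no alternative called a member. The 24-h change of the ratio of Sds to Sdsl had an adjusted p of 0.0381 with 0.1, 0.5 or 1 RPKM added and with the upper value, and without CT35 its fitted difference was 1.20 with an adjusted p of 0.102 (exact permutation test). The choice of the transcript, the edgeR test of introns and the ratio without CT35 were added after the data were seen. Depth differed widely between members, from 18 reads for Sdsl in CT65 to 65265 for Cps1 in CT35.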
